A study of Drosophila melanogaster with 3 samples.

Results

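The regions described here are 319 ChIP-seq peaks whose summit lay within 500 bp of an annotated transcription start site (TSS) of a noncoding RNA (ncRNA) gene, out of 7804 peaks in all and 3603 promoter peaks. They were chosen by position alone. The peak list was the series-level list that the authors named conservative, each interval was counted once with its strongest summit, and the gene's biotype came from the Ensembl annotation of the BDGP release 6 assembly. In 185 of the 319 peaks no protein-coding TSS lay within 500 bp of the summit, and these are called ncRNA-only. The other 134 also had a protein-coding TSS within 500 bp and are called shared. The remaining 3284 promoter peaks served as the comparison. Chromatin came from whole Drosophila melanogaster embryos of the strain CG17361-GFP, 0 to 24 hours old, which carry a transgene encoding the zinc finger protein CG17361 fused to eGFP, and was precipitated with an antibody against GFP after sonication to 200 to 800 bp. The 3 biological replicates form 1 group, all of them with the transgene, so nothing could be compared between conditions, and p-values measure only the spread between these samples. The promoter that drives the fusion is not given in the sources used here, and whole embryos mix all tissues and stages of that day. No read totals accompany the lists, so the depth is unknown.

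Noncoding RNA genes of Drosophila include long noncoding RNAs (lncRNA) transcribed by RNA polymerase II, antisense RNAs (asRNA) that overlap a coding gene on the opposite strand, host genes of small nucleolar RNAs (snoRNAs), and microRNAs (miRNAs), which are cut from longer primary transcripts. Several have well known functions. The roX RNAs guide the dosage compensation complex to the male X chromosome, flamenco (flam) is a source of piRNAs that silence transposons in ovarian somatic cells, and snoRNA hosts carry the guides for ribosomal RNA modification in their introns. Many others are annotated from transcription alone, and some of their promoters face away from a coding promoter across a short stretch of DNA.

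The sequence under 8 of the summits shows what most of the class had in common, a core rich in A and T. Each is the reference sequence of dm6 from 50 bp before to 50 bp after the summit, written 5′ to 3′ on the strand of the ncRNA gene, with the longest unbroken run of A and T in capitals. The first 3 belong to the strongest ncRNA-only summits that could be shown, at chr3R:17700539-17700639 on the plus strand for CR46036, chrX:15298422-15298522 on the minus strand for CR44429 and chr3L:3250185-3250285 on the plus strand for CR43626. The next are the strongest shared summits that could be shown, at chr3R:26021328-26021428 for CR43644 and chr3R:25247494-25247594 for CR46364, both on the minus strand. The last 3 are known RNAs, at chrX:3862435-3862535 on the minus strand for roX1, and on the plus strand at chrX:11579081-11579181 for roX2 and chrX:21631735-21631835 for flam.
CR46036: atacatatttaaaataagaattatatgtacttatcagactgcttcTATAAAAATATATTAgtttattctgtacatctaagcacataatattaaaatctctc
CR44429: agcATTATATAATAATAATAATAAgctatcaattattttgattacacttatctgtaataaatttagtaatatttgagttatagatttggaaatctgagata
CR43626: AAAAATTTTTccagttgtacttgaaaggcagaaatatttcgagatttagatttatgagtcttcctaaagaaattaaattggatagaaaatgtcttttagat
CR43644: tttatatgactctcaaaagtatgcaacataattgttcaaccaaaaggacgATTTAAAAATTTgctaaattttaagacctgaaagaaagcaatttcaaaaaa
CR46364: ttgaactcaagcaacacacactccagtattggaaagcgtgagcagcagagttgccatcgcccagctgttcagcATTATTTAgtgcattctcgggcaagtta
roX1: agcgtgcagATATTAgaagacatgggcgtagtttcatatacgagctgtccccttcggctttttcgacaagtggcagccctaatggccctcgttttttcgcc
roX2: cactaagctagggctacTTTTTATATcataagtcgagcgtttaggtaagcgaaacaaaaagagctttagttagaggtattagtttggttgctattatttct
flam: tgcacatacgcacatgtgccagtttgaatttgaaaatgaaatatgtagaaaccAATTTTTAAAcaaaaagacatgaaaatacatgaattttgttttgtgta

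The longest A/T run in these windows spanned 21 bases at CR44429, 15 at CR46036, 12 at CR43644 and 10 at CR43626 and flam. GC content was 18.8% at CR44429, 20.8% at CR46036, 25.7% at CR43626 and CR43644, and 27.7% at flam. The exceptions were CR46364, with 47.5% GC and a run of 8 bases, and roX1, with 50.5% GC and a run of 6 bases. The window at roX2 was intermediate, at 34.7% GC with a run of 9 bases. The word TATAAA, the core of the TATA box, was present in the windows of CR46036, CR43644 and roX2 on either strand, which says nothing of whether it is used.

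Fewer of the ncRNA genes than of the coding genes had a summit in reach, a difference given here without a test. Of 3261 annotated ncRNA genes, 306 (9.38%, 95% Wilson interval 8.43 to 10.4%) had a main summit within 500 bp of a TSS, beside 22.3% of all 18164 genes and 26.4% of the 13945 protein-coding genes. In the replicates' own thresholded lists the ncRNA share was 7.15%, 4.94% and 7.05% for replicates 1, 2 and 3, beside 19.3%, 13.4% and 18.3% of all genes. All 3 replicates gave the lower share for ncRNA genes. Any TSS of a gene counted here, which favours genes with several. The 13945 coding genes had 19607 TSSs, and the 1683 lncRNA genes with no coding TSS within 500 bp had 1775. This counting rule therefore favours a higher share for coding genes by construction. For scale, 5.05% of the bases of the 6 arms lay within 500 bp of a main summit. The numbers of such peaks in the replicates' lists were 259, 165 and 235, or 8.60% ± 0.30 (SD, n = 3) of the promoter peaks of each list, beside 8.85% in the main list. The series-level list whose IDR comparison leaves out replicate 1 held 176 such peaks and that without replicate 3 held 238. Reads of the replicate left out still enter the peaks of such a list. Intervals and floors cover counting error only.

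By kind of ncRNA gene, the share bound was 205 of 1944 lncRNA genes (10.5%), 59 of 503 asRNA genes (11.7%) and 12 of 260 miRNA hairpins (4.62%). Of the 7 annotated snoRNA host genes 5 were bound (71.4%, Wilson interval 35.9 to 91.8%). The annotation also lists 481 mature miRNAs as genes, 23 of them bound (4.78%). The start of a hairpin or mature miRNA is a processing site and not a transcription start, and 13 of the 319 peaks were chosen through miRNA entries alone. Among lncRNA and asRNA genes, 24.2% of the 128 genes with several TSSs were bound and 10.05% of the 2319 with 1 TSS, a contrast that the larger number of positions per gene favours by construction.

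A summit was in reach more often where a coding TSS lay close to that of the ncRNA gene. With a protein-coding TSS within 500 bp of their own, 112 of 556 ncRNA genes were bound (20.1%, Wilson interval 17.02 to 23.7%), and without one 194 of 2705 (7.17%, 6.26 to 8.21%). The difference had the same direction in every replicate, with 9.60, 4.67 and 9.71 percentage points for replicates 1, 2 and 3, or 7.99 ± 2.88 (SD, n = 3; two-sided exact sign-flip permutation test, p = 0.25, the smallest that 3 replicates allow, and 0.375 adjusted over 6 differences by the Benjamini-Hochberg method). For lncRNA genes the shares were 19.5% with and 9.15% without a coding TSS. For asRNA genes they were 23.1% and 5.30%, and for miRNA hairpins 20.7% of only 29 genes and 2.60% of 231. In replicate 2 the hairpins went the other way, with 0% and 1.73%. A summit near a shared promoter is counted for both genes, so these shares do not say which gene of a pair the protein is bound at. Since 26.4% of all coding genes had a summit within 500 bp, this counting rule favours a higher share beside a coding TSS by construction. In the lists that compare the other replicates, the difference was 5.24 points without replicate 1 and 7.62 without replicate 3, against 12.97 in the main list. Seen from the coding side, 29.7% of the 548 coding genes with an ncRNA TSS within 500 bp were bound, and 26.3% of the other 13397.

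**Figure D1:**
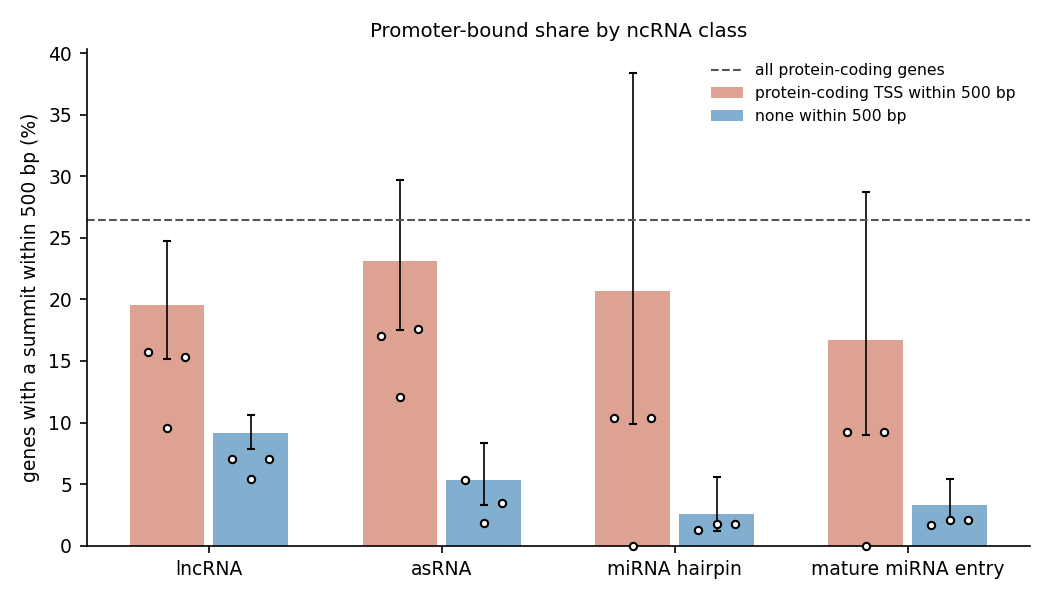
Share of ncRNA genes with a summit within 500 bp of a TSS (%, y axis) by annotated class (x axis), for genes with a protein-coding TSS within 500 bp of their own (red) and without (blue). Bars are the main list with 95% Wilson intervals, open circles the 3 replicates' own lists, and the dashed line the 26.4% of all protein-coding genes. The red bars lie above the blue ones in each class, from 19.5% against 9.15% for lncRNA genes to 20.7% against 2.60% for miRNA hairpins. In replicate 2 the order was reversed for hairpins, with 0% in red and 1.73% in blue. It was also reversed there for mature miRNA entries, with 0% and 2.11%.

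Summits gathered sharply at coding TSSs and much less at ncRNA TSSs. Around the most upstream TSS of each coding gene, the main list held 0.416 summits per kb and gene within 250 bp and 0.0745 at 2000 to 3000 bp, a ratio of 5.57. Around lncRNA genes with no coding TSS within 500 bp the densities were 0.0949 and 0.0716, a ratio of 1.33. Their highest 100 bp bin was centred 550 bp downstream of the TSS, outside that window, at 0.178 summits per kb and gene. These genes have no coding TSS within 500 bp, so this is the first downstream bin in which one can lie. Whether its summits belong to coding promoters was not tested. Replicates 1, 2 and 3 gave ratios of 1.36, 1.75 and 1.37 for these lncRNA genes, and 6.06, 6.32 and 6.09 for coding genes, so the groups of values did not overlap. The ncRNA genes with a coding TSS within 500 bp lay between, at 2.68 in the main list and 2.74 ± 0.24 (SD, n = 3) in the replicates. For asRNA genes without one the ratio was 0.43, and 0.64 ± 0.31 in the replicates. For miRNA hairpins without one it was 0.28, and 0.21 ± 0.17. These genes were chosen for having no coding TSS close by, while their flanks can hold coding promoters, which lowers the ratio by construction. With every position within 500 bp of a coding TSS left out of both the window and the flank, the ratio in the main list was 1.55 for lncRNA genes, 1.18 for asRNA genes and 0.52 for miRNA hairpins. The replicates then gave 1.77 ± 0.23, 2.29 ± 1.53 and 0.44 ± 0.37 (SD, n = 3). In the main list these asRNA and hairpin values rest on 5 and 3 summits within 250 bp, so neither class could be placed above or below its flanks.

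**Figure D2:**
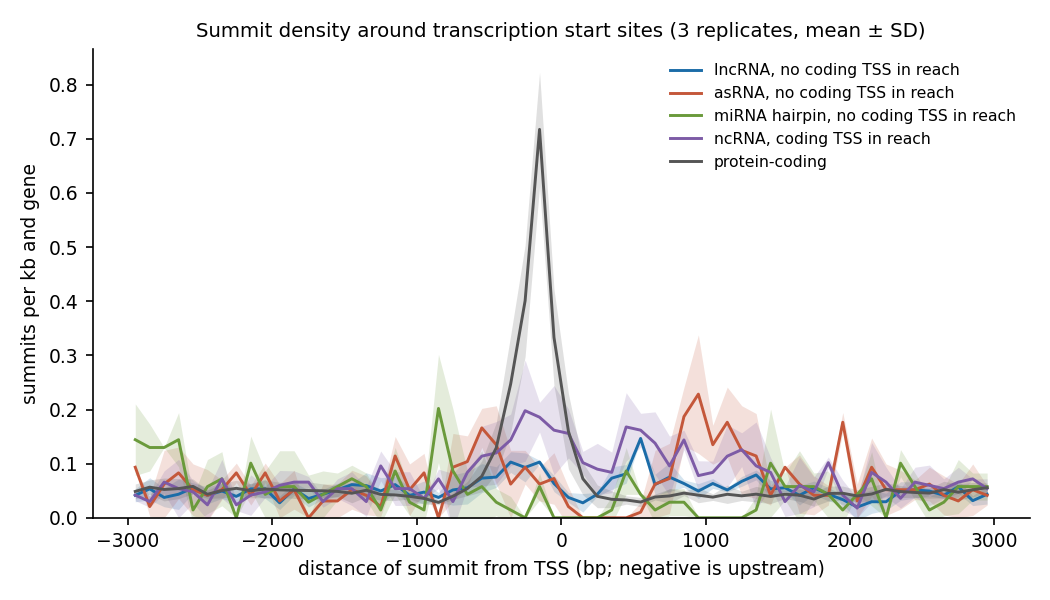
Density of summits (per kb and gene, y axis) in 100 bp bins by distance from the most upstream TSS of each gene (bp, x axis, negative is upstream), as the mean of the 3 replicates' own lists with a band of 1 SD. Coding genes have a sharp peak just upstream of the TSS. The lncRNA genes with no coding TSS within 500 bp have a ratio of 1.49 ± 0.22 between the density within 250 bp and that at 2000 to 3000 bp. Their highest bin is not at the TSS but at 550 bp downstream, with 0.149, 0.143 and 0.149 in replicates 1, 2 and 3. That bin is the first one downstream in which a coding TSS can lie. The bin at -150 bp has 0.107, 0.101 and 0.101.

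The position of the ncRNA-only summits was correspondingly loose. Their median distance from the nearest ncRNA TSS was 246 bp, beside 142 bp from the nearest coding TSS for the other promoter peaks, and 50.8% of them lay within 250 bp of it, beside 75.4%. In the replicates' own lists this distance exceeded that of the other promoter peaks by 94, 98 and 95 bp, or 95.7 ± 2.08 bp (SD, n = 3; exact sign-flip p = 0.25, adjusted 0.375). Coding genes have more annotated TSSs per gene than lncRNA genes, which can shorten the distance to the nearest one by construction. Every summit was chosen to lie within 500 bp of an ncRNA TSS. An even spread over that range would have its median at 250 bp, so by distance alone the ncRNA-only summits cannot be told from one. Of the ncRNA-only summits 60.5% lay upstream of the TSS (Wilson interval 53.4 to 67.3%), beside 79.0% of the other promoter summits, and all 3 replicates gave a lower share, by 19.7 ± 3.06 percentage points on average (exact sign-flip p = 0.25, adjusted 0.375). The summit nearest to an ncRNA TSS was 1 bp upstream of asRNA:CR44390, an antisense gene next to RhoGEF2. The farthest was 500 bp upstream of lncRNA:CR42862.

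Among the shared peaks the coding TSS was more often the nearer of the pair. The summit was nearer to the coding TSS in 81 of 134 peaks, nearer to the ncRNA TSS in 47 and equally far from both in 6. The median distance to the coding TSS was 173 bp and to the ncRNA TSS 255 bp, and 86.6% of the summits lay upstream of the coding TSS. In 87 of the 134 pairs (64.9%) the genes were transcribed away from each other. In these divergent pairs the summit lay between both starts in 65 of 87 (74.7%) and nearer to the coding start in 44. In 24 pairs the genes lay on opposite strands and ran over each other's start, with the summit at a median of 108 bp from the coding start and 291.5 bp from the ncRNA start. In the remaining 23 both genes ran the same way. The last kind had the highest median signal, 301.2, against 233.4 for divergent and 195.3 for overlapping pairs. These medians come from the main list alone, with only 23 and 24 peaks in the smaller groups, and the difference was not tested.

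The signal of the peaks at ncRNA genes did not differ from that of other promoter peaks beyond the spread between replicates. The signal is the authors' score for each peak, used here only within 1 list. The median was 223.5 for the 319 peaks (214.9 for ncRNA-only and 235.3 for shared ones), beside 225.7 for the other promoter peaks and 206.5 for peaks away from promoters. As percentiles of each list, their median differed from that of the other promoter peaks by -0.62 points in the main list. The replicates gave -5.33, -1.66 and 4.62 points, a mean of -0.79 ± 5.03 (SD, n = 3; exact sign-flip p = 0.75). At the top of the list, 6 of the 100 strongest peaks and 27 of the 500 strongest (5.40%) were at ncRNA genes, which made up 4.09% of the whole list. The weakest of the class were mir-4968 with a signal of 4.21 and mir-9370 with 5.01, both chosen through a miRNA hairpin.

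Replicate support was near that of other promoter peaks. A peak was called found in a replicate when its summit lay inside a peak of that replicate's own thresholded list. Of the 319 peaks, 127 (39.8%, Wilson interval 34.6 to 45.3%) were found in all 3 replicates, beside 36.9% of all main peaks and 40.3% of all promoter peaks, so the share is near the background. Another 78 were found in 2 replicates, 58 in 1 and 56 in none. A peak not found can still be present below the threshold. The ranked lists of replicates 1, 2 and 3, which hold peaks without the IDR threshold, had a peak at 98.7%, 84.3% and 98.7% of the 319 summits. The share found in all 3 was 38.9% for ncRNA-only and 41.0% for shared peaks, a difference of -2.13 percentage points (Newcombe interval -12.9 to 8.60). In the list without replicate 1, the share of all such peaks found in all 3 replicates was 68.75%, and the difference was -13.9 points, outside that interval. Replicate 2, with the shortest list, held 153 of the summits, against 224 for replicate 1 and 218 for replicate 3. The main list was filtered by the agreement of replicates 1 and 3, which favours those replicates. The median signal was 135.3 for peaks found in no replicate and 161.2, 221.8 and 418.0 for those found in 1, 2 and 3.

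**Figure D3:**
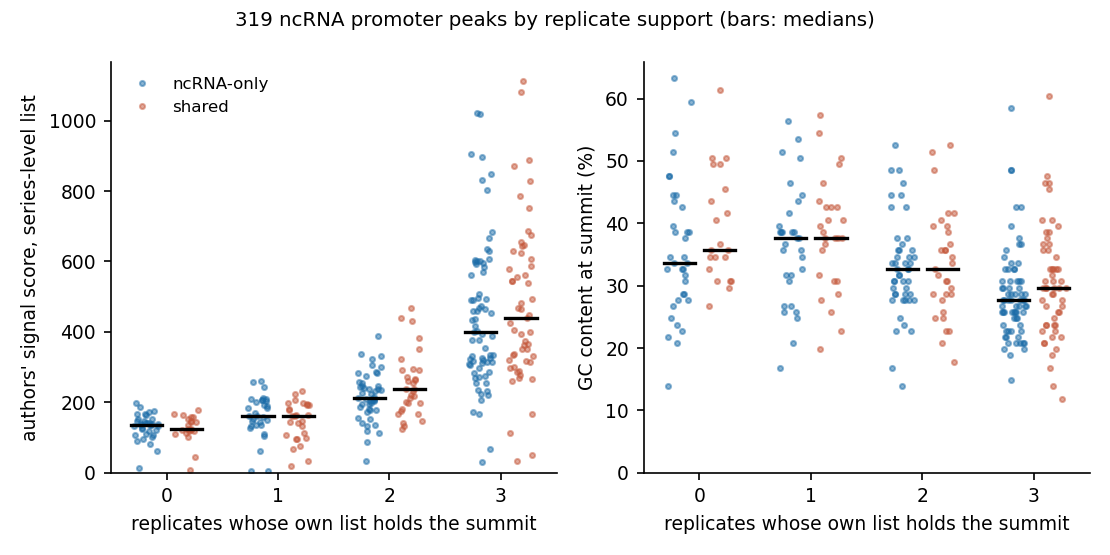
Each point is 1 of the 319 peaks, placed by the number of replicates whose own list holds its summit (x axis) and by the authors' signal score in the series-level list (left) or the GC content within 50 bp of the summit in percent (right), ncRNA-only in blue and shared in red. Bars are medians. Among both kinds, the peaks found in all 3 replicates have the highest median signal and the lowest median GC content.

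The 12 strongest peaks were all found in every replicate, 7 of them ncRNA-only and 5 shared. The strongest lay at lncRNA:CR44463 on 2R (interval chr2R:15217481-15218097), with a signal of 1112 and the rank 14 among all peaks. Its signals in replicates 1, 2 and 3 were 385.2, 349.6 and 402.0. The summit was 431 bp from the lncRNA start but 147 bp upstream of mRpL41, a mitochondrial ribosomal protein gene. The next, with a signal of 1082, lay 302 bp upstream of lncRNA:CR43644 and 445 bp from E(spl)m3-HLH, a bHLH repressor gene of the Notch response, within chr3R:26021059-26021718. Its replicate signals were 424.4, 280.9 and 368.7. Both peaks are thus high in every replicate and both are shared with a coding promoter.

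The strongest ncRNA-only peak lay 164 bp upstream of lncRNA:CR44339 within chr2R:12984923-12985501, with a signal of 1021. Its replicate signals were 379.0, 278.3 and 356.1, and the nearest coding TSS, that of the Polycomb group gene Psc, was 4209 bp away. Its summit window held the longest A/T run of the whole class, 35 bases. At lncRNA:CR46036 the signal was 1018, with 373.0, 256.7 and 406.3 in the replicates, at a summit 152 bp upstream of the lncRNA start. The summit lies inside a coding gene body, and the nearest coding TSS, that of CG31249, was 13518 bp away. At asRNA:CR44429 the signal was 903.8, and the nearest coding TSS, that of gce, a receptor for juvenile hormone, was 537 bp away, so that this peak was just outside the limit for a shared one. All 3 of these loci were found in every replicate.

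The other members of the 12 span signals from 802.9 to 895.4. The peak at lncRNA:CR43626 (895.4) lay inside that gene, 359 bp upstream of an internal alternative start. The peak assigned to sisRNA:CR46364 (889.3) lay 122 bp upstream of it but 30 bp from the start of RpS27, a ribosomal protein gene, with Nup37, a nuclear pore gene, also in reach. At lncRNA:CR44149 (870.6) the summit was 70 bp downstream of the lncRNA start and 175 bp from brwl. The peak at lncRNA:CR45593 (827.7) lay 315 bp from Ama, a cell adhesion gene. The remaining ncRNA-only peaks were at lncRNA:CR45352 (847.8), 2125 bp from the phagocytosis receptor family gene NimC3, at lncRNA:CR45595 (831.8), 1204 bp from l(3)neo38, and at lncRNA:CR31044 (802.9), 5736 bp from the translation elongation factor gene eEF1gamma. Of the 12 summits, 9 were upstream of the nearest annotated ncRNA start.

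**Figure D4:**
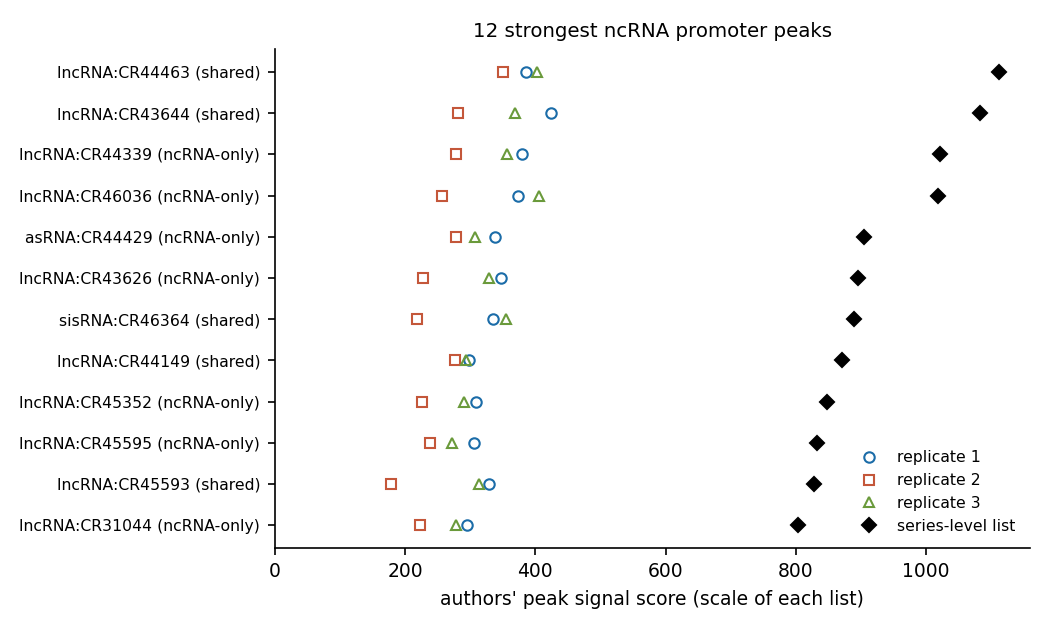
Authors' signal score (x axis) of the 12 strongest peaks at ncRNA genes (y axis) in the series-level list (black diamonds) and in the 3 replicates' own lists (open symbols). Scores of different lists are on different scales and are compared only within a list. Every peak is present in all 3 replicates.

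Of 36 named ncRNA genes with known roles or names, chosen for their names, 10 had a promoter peak (27.8%), beside 9.38% of all ncRNA genes and 22.3% of all genes. Among the dosage compensation RNAs, roX1 had a summit inside the annotated gene, 60 bp upstream of an internal alternative start, with a signal of 151.5, found in replicate 1 alone, where its signal was 73.7. A second, overlapping interval had its summit 13 bp downstream of the gene's most upstream start with a signal of 110.5. The peak of roX2 lay 66 bp inside the gene with a signal of 120.1 and was found in no replicate's own thresholded list. Both roX promoters stood in the lower part of the list, at ranks 5747 and 6803 of 7804. The piRNA source flam had a summit 106 bp upstream of its start, with a signal of 285.7, and was found in replicate 2 (85.9) and replicate 3 (122.7). The peak of yar, which lies 5690 bp from the start of yellow (y), had a signal of 176.9 and was found in no replicate's own thresholded list. The peak of lncRNA:TS2, 41 bp upstream of its start, had a signal of 255.7 and was found in all 3, with 90.6, 65.4 and 88.7.

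Of the 7 snoRNA host genes, 5 had a peak. Uhg4 had the strongest, at 555.8, found in all 3 replicates with 205.7, 135.8 and 227.8, and its summit lay 491 bp from the start of Boot. The main summit nearest to the Uhg4 start was that of another peak, 78 bp away, with a signal of 156.4 and the rank 5571. Uhg8 followed at 482.3, also found in all 3, with 198.0, 164.5 and 144.7. The strongest peaks of Uhg2 (262.6), Uhg1 (254.7) and Uhg5 (218.1) were found in 2 replicates each, and all 5 of these strongest peaks were divergent shared promoters. Uhg3 and Uhg7 had no summit within 500 bp, and the closest lay 1935 bp and 1422 bp away, with signals of 750.3 and 480.4.

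The other 26 genes on that list had no peak. No main summit lay within 500 bp of the heat shock RNA Hsromega, with the closest 22338 bp away, of the bithorax complex RNAs bxd (1407 bp), iab8 (4950 bp) and iab4 (6285 bp), or of the let-7 complex host let7C (12104 bp). The 4 annotated RNAs of RNA polymerase III on the list, both 7SL RNAs, RNaseP:RNA and RNaseMRP:RNA, also had none in the main list, though replicate 3 listed a summit 318 bp from RNaseMRP:RNA. The remaining genes without a peak were mir-bft, cherub, CRG, sphinx, noe, Vinr, dntRL, acal and 7 of the 8 TS lncRNAs. At Vinr a peak of signal 1134, ranked 11 in the list, lay 1344 bp from the start, beyond the limit. A further 7 names had no ncRNA gene in the annotation used.

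Of the 13 peaks chosen through miRNA entries alone, 4 were found in all 3 replicates (30.8%) and 3 in none (23.1%), beside 36.9% and 18.95% of all main peaks. The 4, named because they are few, were at mir-9377 (signal 600.0), at a mature miRNA entry 218 bp from the coding start of jigr1 (537.7), at mir-9378 (437.7) and at mir-ban (323.8), which gives rise to bantam, a miRNA that promotes growth and blocks apoptosis. The summit near mir-ban lay 422 bp downstream of the hairpin's start, and its nearest coding TSS was 5925 bp away.

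The summits sat in a local dip of GC content. Within 50 bp of the summit GC content averaged 33.1% over the 319 peaks, beside 43.8% in windows of equal length 250 bp to either side, and 243 peaks (76.2%) were lower at the summit. The other promoter peaks averaged 33.1% and 41.7%. The replicates differed from the other promoter peaks by 1.06, -0.29 and 0.18 percentage points, a mean of 0.32 ± 0.68 (SD, n = 3; exact sign-flip p = 0.75). Within the class, ncRNA-only summits averaged 32.4% and shared summits 34.1%. The replicates gave the same direction, with differences of -1.22, -2.39 and -2.92 points, a mean of -2.17 ± 0.87 (SD, n = 3; exact sign-flip p = 0.25, adjusted 0.375).

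**Figure D5:**
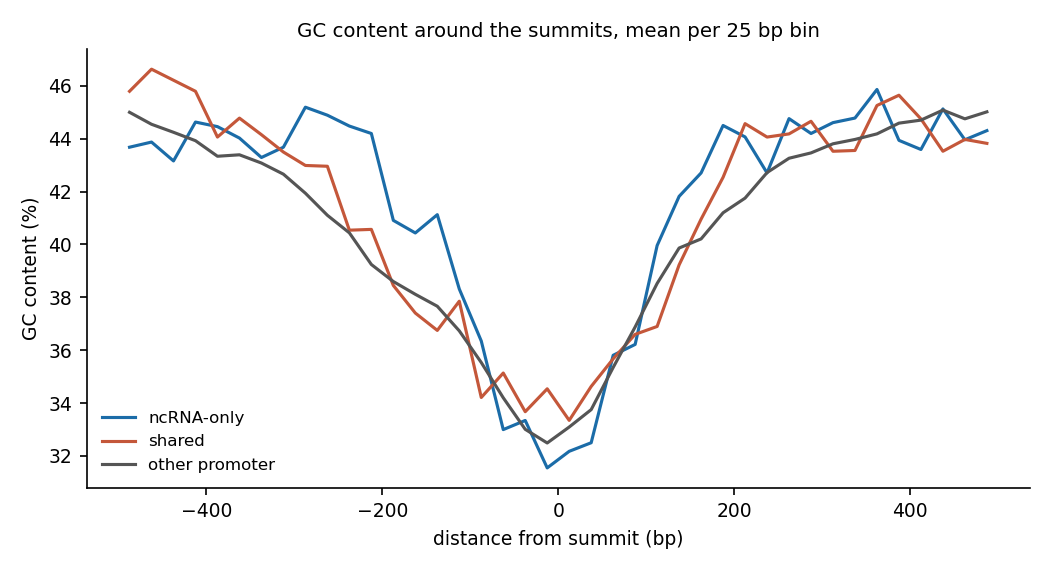
Mean GC content (%, y axis, not starting at 0) in 25 bp bins by distance from the summit (bp, x axis) for ncRNA-only, shared and other promoter peaks of the main list. All 3 curves have their minimum in a bin next to the summit, at 31.5% for ncRNA-only, 33.3% for shared and 32.5% for other promoter peaks.

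GC content was lowest at the summits with the most replicate support. Summit GC content averaged 37.2%, 37.3%, 33.1% and 29.5% for peaks found in 0, 1, 2 and 3 replicates, while that of the flanks was 43.3%, 42.3%, 41.8% and 45.9%. The other promoter peaks also had their lowest value at full support, with 37.2%, 36.1%, 33.8% and 29.8% for 0, 1, 2 and 3 replicates. The median longest run of A and T was 9, 8, 10 and 11 bases at the peaks found in 0, 1, 2 and 3 replicates. The median longest run of A and T near the summit was 10 bases for the 319 peaks, against 7 in the flanks. Runs of at least 12 bases were present in 37.6% of the summit windows and 17.7% of the flanks, beside 41.7% and 18.9% for the other promoter peaks. Of the 12 strongest peaks, 10 had lower GC content at the summit than in the flanks, and CR46364 and CR31044 were the exceptions. Support and signal rise together, so the part of either cannot be told apart here.

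Short words of known regulatory motifs were searched on both strands within 50 bp of the summit, as exact matches, and their shares are given without a test. TATAAA was present in 27.3% of the 319 windows and 9.87% of the flanks, beside 24.8% and 13.4% for the other promoter peaks and 13.3% of the windows at all ncRNA starts. The A/T words ATATTTTA (6.27% against 2.19% in the flanks) and TTTAAAAA (6.58% against 3.29%) were also more frequent at the summit. The other promoter peaks had 5.94% against 2.38% and 8.16% against 3.35%. All 3 words consist of A and T alone, so that their frequency moves with GC content. CGATA, the core of the BEAF-32 site, was found in 18.2% of the windows and 14.1% of the flanks. It was present in 37 of 134 shared windows (27.6%) and 21 of 185 ncRNA-only windows (11.4%), beside 23.7% of the windows at all coding starts and 11.4% at all ncRNA starts, close to the shares of the respective gene class. The longer word TATCGATA, the DRE bound by Dref, which contains CGATA, was found in 8 windows (2.51%), beside 3.44% for the other promoter peaks. GAGAG, bound by GAGA factor, and GCCAT, bound by Pho, were less frequent at the summits than in the flanks, with 10.03% against 15.7% and 11.6% against 16.6%. The direction was the same at the other promoter peaks, with 8.10% against 14.1% and 12.7% against 16.002%. Both words hold G and C, so their frequency can also move with GC content. The Su(Hw) core TGCATA was found in 8.78% and 6.27%. Of the other words, the initiator TCAGTT (5.02%), the E-box CAGCTG (3.13%), Ohler 8 GGCAACG (1.57%), the Zelda word CAGGTAG (0.627%), M1BP motif 1 GGTCACACT (0.313%) and the CTCF core AGGTGGCG (0.313%) were rare. A match is a description of the letters and shows no binding by these factors.

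The class was spread over the large arms, with 78 peaks on 2L, 75 on 2R, 65 on 3L, 56 on 3R and 45 on X. They made up 5.53% and 5.44% of the main peaks on 2L and 2R, and 3.08% to 3.56% on X, 3L and 3R. These shares also move with the number of ncRNA genes on an arm, which was 804 on 2L and 483 on X. Counted per ncRNA gene, the share bound was 8.83% on 2L, 12.01% on 2R, 9.30% on 3L, 8.08% on 3R and 9.94% on X. Differences between arms were not tested. Chromosome 4 held none among its 57 main peaks, which allows a share of up to 5.26% (3 counts of the total). Of the 30 ncRNA genes on chromosome 4, none was bound in the main list or in replicate 2, and 2 were bound in replicate 1 and 2 in replicate 3 (6.67% in each). Around the summits, 104 of the 319 (32.6%) lay inside a protein-coding gene body, compared with 44.5% of the other promoter summits. Of the ncRNA-only summits 34.6% lay within 2000 bp of a coding TSS and 95.7% within 20000 bp, with a median of 3558 bp. Some intervals overlapped each other, 76 of them in all, and merging these left 281 separate loci. At 45 ncRNA genes a pair of member peaks was in reach.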

How the data were processed

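ChIP-seq peak lists of 3 replicate libraries of 1 group were used. Per the labels, the authors' lists are in dm6 coordinates and made against a control library. Neither aligner nor peak caller is named there. The deposited lists hold a signal score on an unstated scale, a deposited −log10 q-value column and the authors' global IDR as a deposited −log10 value, at least 2 (IDR of 0.01 or less) in each thresholded line. The conservative list compares replicates 1 and 3. It was identified by matching intervals and scores, and reads of replicate 2 still enter its peaks.

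Peaks were collapsed by interval to the line of highest score. Coordinates count from 1. TSSs came from Ensembl release 115, without transposable elements. Lists were handled with Python 3.11.15, pandas 2.3.3 and scipy 1.17.1, and the routines were tested on simulated data. Replicate values come from each replicate's own thresholded list, as mean ± SD. Differences were tested with two-sided exact sign-flip permutation tests over replicates (smallest p 0.25, threshold 0.05), adjusted by Benjamini-Hochberg. Genes named are the 12 strongest peaks, the 5 strongest of each kind, a list of named ncRNAs, the extremes, and counts of at most 5. The members and lists were chosen with earlier results of these data known. Alternatives covered the list, replicates, IDR, TSS limit, summits, TSS choice and window.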

Additional observations from a re-analysis of the deposited data

How the results depend on the processing

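The share of ncRNA genes bound stayed higher with a protein-coding TSS in reach than without one under all 11 alternatives. The GC content of ncRNA-only summits stayed lower than that of shared summits under all 13. The lncRNA density ratio stayed within 1 replicate SD of 1.33 under 9 of 10. Each tally includes the list without replicate 2, which is the main list itself and agrees by construction. The counting rule also favours the first of these differences by construction. With positions within 500 bp of a coding TSS left out, the lncRNA ratio was 1.55, and the asRNA ratio passed from 0.43 to 1.18, since this takes coding promoters out of the flanks. The size of the first difference moved from 12.97 percentage points to 7.28 with an IDR of 0.001 or less, 8.08 with a TSS limit of 250 bp and 4.37 among peaks found in all 3 replicates, and from 5.24 to 12.97 when a replicate was left out. Counts moved by construction. The peaks numbered 194, 160, 587 and 127, and the bound genes 196, 154, 533 and 128, with an IDR of 0.001 or less, TSS limits of 250 bp and 1000 bp, and peaks found in all 3 replicates. When a replicate was left out, the peaks ranged from 176 to 319 and the genes from 175 to 306. A replicate left out here means only that IDR compared the other pair, since by the labels every series-level list derives from all 3 replicates' alignments. Leaving out replicate 2 gives the main list itself.

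The share of shared peaks was 31.25% at 250 bp, 50.8% at 1000 bp and 37.9% with gene 5′ ends only, and 39.8% to 42.0% without a replicate. The share found in all 3 replicates was 62.9% at the strict IDR and 39.8% to 68.75% without a replicate, with an ncRNA-only minus shared difference of -13.9 to -2.13 points. That difference was 0.18 points at 250 bp and 3.55 at 1000 bp. The median signal percentile was 58.9 among peaks found in all 3 replicates. Summit GC content was 30.3% at the strict IDR, 29.5% among peaks found in all 3 replicates, and 30.8% to 33.1% without a replicate. The median distance was 242 bp in the pooled list, 258 bp at the strict IDR, 118 bp and 464 bp at the limits of 250 bp and 1000 bp, 262 bp among peaks found in all 3 replicates, and 247.5 to 263.5 bp without a replicate. The coding density ratio was 5.39 in the pooled list, 5.96 at the strict IDR, 6.21 among peaks found in all 3 replicates, 4.84 with every TSS, 5.27 with flanks of 3000 to 5000 bp, and 5.57 to 5.93 without a replicate.

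Both differences from the other promoter peaks changed sign. In signal percentile the difference became 0.16 at the strict IDR, 0.68 among peaks found in all 3 replicates and 1.13 without miRNA entries, and ranged from -5.11 to -0.62 without a replicate. In GC content it became -0.39 at the strict IDR, -0.013 at 1000 bp, -0.30 among peaks found in all 3 replicates, -0.16 with gene 5′ ends, -0.017 and -0.059 with windows of 25 and 100 bp to each side and -0.070 without miRNA entries, and ranged from -0.062 to 0.097 without a replicate. The causes were not tested. Leaving out miRNA entries, merging overlapping peaks and every alternative for the density ratios were chosen after seeing the data. No paired analysis was possible because there is 1 group. Without read counts, the effect of depth could not be measured.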
